A study of Mus musculus with 72 samples.

Results

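Transcripts for 8 proteins that bring glucose and fructose into hepatocyte metabolism and carry glucose through glycolysis were followed in mouse liver. The 8 genes were Slc2a2, Gckr, Pfkl, Pfkfb1, Pfkfb3, Eno1, Pklr and Khk, taken by gene symbol from a count table of 55573 genes, and all 8 were found once and were tested in every comparison. Male C57BL/6 mice (C57BL/6J by the study's methods) carried a Bmal1 gene flanked by loxP sites (Bmal1 fl/fl). They had either no Cre (WT) or Cre under the Albumin promoter (LKO), which deletes Bmal1 in hepatocytes. The study describes the deletion as liver-specific, with expression kept in the brain. Bmal1 in the other cell types of the liver was not tested here. Each genotype was kept as specific pathogen free (SPF) or germ free (GF) mice, fed autoclaved chow ad libitum as individually housed adults under 12 h of light and 12 h of dark. Livers were taken at ZT2, ZT6, ZT10, ZT14, ZT18 and ZT22, where ZT counts hours from lights on, with 3 mice per group and ZT, 18 per group and 72 in all. The comparisons addressed which transcripts of sugar uptake and breakdown differed with genotype, with microbial status and with time of day. By the study's methods the GF mice were rederived and held in film isolators, while SPF mice were bred in a vivarium. Microbial status thus cannot be told apart from colony and housing, nor loss of Bmal1 from the presence of Cre.

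Liver takes up glucose from portal blood through GLUT2, the low-affinity carrier encoded by Slc2a2. Glucokinase then phosphorylates it and is held inactive in the nucleus by its regulatory protein, encoded by Gckr. Phosphofructokinase, whose liver subunit is Pfkl, commits the sugar to glycolysis and is switched on by fructose 2,6-bisphosphate, a signal that the bifunctional Pfkfb enzymes make and degrade. Eno1 (enolase) and Pklr (the liver and red cell pyruvate kinase) catalyse late steps. Khk (ketohexokinase) phosphorylates fructose and so lets it enter below the phosphofructokinase step. BMAL1 (gene symbol Arntl) is the clock transcription factor that binds E-box sequences with its partner CLOCK or, in its place, NPAS2.

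In GRCm38, the genes lie at chr3:28697903-28731359 (Slc2a2, plus strand), chr5:31297443-31327314 (Gckr, plus), chr10:77986947-78010083 (Pfkl, minus), chrX:150588229-150643878 (Pfkfb1, plus), chr2:11471433-11554077 (Pfkfb3, minus), chr4:150236721-150248879 (Eno1, plus), chr3:89136142-89146784 (Pklr, plus) and chr5:30921431-30931248 (Khk, plus). Reads were counted over exons without regard to strand. Exons of Pklr share 711 bases (21.97% of its exon length) with the antisense gene Hcn3, and those of Pfkfb1 share 123 bases (3.06%) with Apex2. Eno1 has a near-identical intronless copy, Eno1b, so its count may miss reads that align to both.

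Clock-related sequence letters in the promoters of the 8 genes were looked up because BMAL1 is the deleted factor. Windows from 250 bases before to 50 bases after each RefSeq start site (GRCm38.p6, RefSeq sequence) were searched on both strands for the E-box CACGTG, the D-box TTATGTAA (read by PAR bZIP factors) and the hexamer AGGTCA (read by nuclear receptors, among them REV-ERB and ROR). The 8 genes had 15 such windows. The E-box was found in 2 of them and in 7.15% of all promoters, the hexamer in 4 and in 16.3%, and the D-box in 0 and in 0.938%. Each site is shown with 12 bases on either side, read along the gene's strand, with the motif in capitals, since these are the windows in which the letters occur.
Slc2a2, AGGTCA hexamer, 21 bases before the start, chr3:28697870-28697899: cttctgttaaaaAGGTCAgaactacctctc
Pfkfb1, AGGTCA hexamer on the reverse strand, 100 bases before the third of 4 starts, chrX:150589804-150589833: taatattagtacTGACCTttggggcacggt
Pfkfb3, E-box, 53 bases before the second of 2 starts, chr2:11502126-11502155: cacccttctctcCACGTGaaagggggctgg
Eno1, AGGTCA hexamer, 162 bases before the first of 3 starts, chr4:150236534-150236563: atattaagggaaAGGTCActttcccttggc
Pklr, AGGTCA hexamer on the reverse strand, 151 bases before the first of 2 starts, chr3:89135979-89136008: aggaaaaacggaTGACCTaggggaagggaa
Khk, E-box, 71 bases before the start, chr5:30921476-30921505: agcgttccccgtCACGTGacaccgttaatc
Windows of Gckr and Pfkl held none of the 3 motifs. A match describes letters in a window and is not a measured binding site, and the Khk site lies inside the first exon of the Ensembl gene model.

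Libraries held 17369927 to 22076113 counts in genes (median 19106725.5), and values are given as counts per 1000000 counts (CPM) after edgeR's library scaling. The whole-gene Arntl count includes exons outside a deleted segment, so the check of genotype rests on its time course and on Npas2, which sat at medians of 24.5 CPM in SPF LKO and 26.1 CPM in GF LKO mice against 0.285 and 0.334 CPM in SPF and GF WT mice. Expression in 4 libraries went against their labels. The library labelled SPF LKO ZT14 replicate 2 had 0.219 CPM of Npas2 where the other SPF LKO libraries of that ZT had 24.02 to 25.03 CPM. The library labelled SPF LKO ZT18 replicate 1 had 1.82 CPM of Npas2 against 27.5 to 36.7 CPM. For Arntl, the library labelled SPF WT ZT14 replicate 3 held 2.12 CPM against 15.8 to 19.5 CPM. That labelled GF WT ZT6 replicate 3 held 8.21 CPM against 1.62 to 2.43 CPM. All 4 were kept, and calls of the 8 genes that changed without them are given both ways. Other libraries also departed from their group and were not doubted. Among them, SPF WT ZT2 replicate 2 had 6.93 CPM of Npas2 against 1.06 and 1.58 CPM. SPF WT ZT18 replicate 3 had 0.107 CPM against 2.28 and 2.75 CPM. These livers held 9.13 and 8.24 CPM of Pfkfb3, the lowest of their group and ZT. Hepatocyte markers were high in all 72 libraries, and the summed CPM of the 5 measured ranged from 83650 to 136200 in SPF WT from 45050 to 129100 in SPF LKO, from 117800 to 178000 in GF WT and from 57460 to 79650 in GF LKO mice. Of these 5, only Alb fell in SPF LKO mice (log2 fold change -0.98). In GF LKO mice Alb (-1.70) and Ttr (-0.21) fell and Apoa2 (0.21) and Fgb (0.26) rose. Of the 5 Kupffer cell markers, 4 were lower in SPF LKO mice (Vsig4, Cd5l, Clec4f and Timd4, -0.20 to -0.33) and 1 in GF LKO mice (Timd4, -0.32). Of the 5 cholangiocyte markers, 1 was higher in SPF LKO mice (Sox9, 1.17) and 2 in GF LKO mice (Sox9, 0.78, and Spp1, 1.18). Their median was 0.02 in SPF and 0.24 in GF mice. The pancreatic gene Cela1 was higher in LKO mice (SPF 1.27, GF 1.13). Prss1, Cpa1 and Pnlip held 0, 6 and 4 counts over all libraries. Of 5 stellate cell markers 1 was higher in each comparison. Of 5 endothelial markers 1 was lower in SPF and 1 higher in GF mice. Among 3 erythroid markers 1 was lower in each, as was the 1 adipocyte marker tested. The part of these other cell types in the changes described here was not tested, and in whole liver fewer cells of a type and less RNA per cell cannot be told apart.

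Loss of hepatocyte Bmal1 was accompanied by lower Slc2a2, Pfkfb3, Eno1 and Khk and higher Gckr in both SPF and GF livers, and by lower Pklr in GF livers. In SPF mice 5 of the 8 transcripts differed between LKO and WT mice with ZT pooled, 4 lower and 1 higher, where 23.1% of 13159 genes differed (edgeR quasi-likelihood test, Benjamini-Hochberg adjusted p under 0.05, 18 against 18 livers). Among GF mice 6 of the 8 differed, 5 lower and 1 higher, where 30.8% of genes did. The median log2 fold change of the 8 genes was -0.15 in SPF and -0.57 in GF mice, against -0.01 and 0.01 over all genes tested. Replicates are separate mice by their labels.

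**Figure D1:**
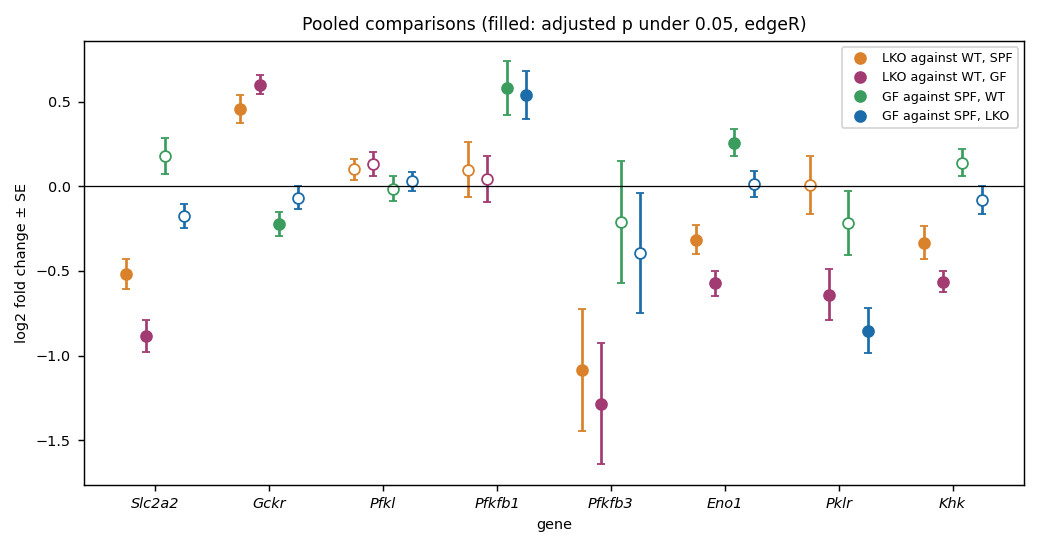
Log2 fold changes (vertical axis, bars are standard errors) of the 8 transcripts (horizontal axis) in the 4 comparisons with ZT pooled, 18 against 18 livers each. Filled points passed an adjusted p of 0.05. Slc2a2, Pfkfb3, Eno1 and Khk lie below 0 and Gckr above 0 in both LKO against WT comparisons. Pfkfb1 lies above 0 in both GF against SPF comparisons.

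Slc2a2, the glucose carrier, showed the clearest loss. In SPF WT livers it ranged from 277 to 576 CPM with a median of 383 CPM, and in SPF LKO livers from 225 to 395 CPM with a median of 277 CPM. GF WT livers ranged from 311 to 645 CPM around a median of 486 CPM, and GF LKO livers from 184 to 332 CPM around a median of 251 CPM. The GF groups overlapped only in the stretch between the lowest WT and the highest LKO livers, which came from different ZT. The log2 fold change was -0.52 (SE 0.09, edgeR adjusted p = 2.703e-05) in SPF mice and -0.88 (SE 0.09, adjusted p = 8.745e-10) in GF mice. Without the 3 SPF libraries that went against their labels the SPF value was -0.55.

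Within single ZT, Slc2a2 was lower in LKO mice at all 6 ZT when mice were GF, from -0.67 at ZT22 to -1.03 at ZT6 on the log2 scale, and the 3 livers of each group did not overlap at any ZT, as was so for 19.62% to 35.51% of genes at a ZT. At ZT10 the GF WT livers held 645, 580 and 626 CPM and the GF LKO livers 320, 311 and 332 CPM. The lowest WT liver there was far above the highest LKO liver. In SPF mice the change passed the test at ZT6 (-0.73, SE 0.13, adjusted p = 0.00394) and ZT10 (-0.80, SE 0.13, adjusted p = 0.0007025). SPF WT livers at ZT10 held 398, 576 and 550 CPM, against 302, 284 and 288 CPM in SPF LKO livers, with no overlap, as for 29.83% of genes at that ZT. Calls at ZT6 and ZT10 in SPF and at ZT2, ZT6, ZT10 and ZT14 in GF mice stood in each of 12 fits that left out 1 of the 12 livers of that ZT. The GF call at ZT18 was lost without GF WT replicate 1 or without GF LKO replicate 2 (highest adjusted p 0.0601), and that at ZT22 in 5 of the 12 fits (highest adjusted p 0.136).

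Gckr, the glucokinase regulator, moved the other way. SPF WT livers ranged from 101 to 194 CPM (median 154 CPM) and SPF LKO livers from 133 to 254 CPM (median 220 CPM). GF WT livers ranged from 104 to 181 CPM (median 127 CPM) and GF LKO livers from 161 to 244 CPM (median 194 CPM). The median of each LKO group was above the highest WT liver of the same microbial status. The log2 fold change was 0.46 (SE 0.08, adjusted p = 5.58e-05) in SPF and 0.60 (SE 0.06, adjusted p = 5.004e-11) in GF mice. The lowest SPF LKO livers for Gckr, at 133 and 140 CPM, were the libraries labelled ZT18 replicate 1 and ZT14 replicate 2, and without the 3 doubted SPF libraries the log2 fold change was 0.53.

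Gckr was higher in GF LKO than GF WT livers at all 6 ZT with no overlap, where 19.62% to 35.51% of genes did not overlap at a ZT. It passed the test at ZT6 (0.70), ZT10 (0.42), ZT14 (0.63) and ZT18 (0.84). At ZT6 the GF WT livers held 146, 133 and 114 CPM and the GF LKO livers 212, 232 and 193 CPM. In SPF mice Gckr passed at ZT6 (0.69, SE 0.12, adjusted p = 0.0035), where WT livers held 149, 128 and 166 CPM and LKO livers 231, 243 and 240 CPM, and at ZT10 (0.43, SE 0.10, adjusted p = 0.01444). The SD of these LKO livers was 6.33 CPM. Both ZT6 calls stood in all 12 fits that left out a liver. Of the others, the SPF call at ZT10 was lost without SPF LKO replicate 2 or 3, the GF call at ZT10 without GF WT or GF LKO replicate 2, and the GF calls at ZT14 and ZT18 in 6 of 12 fits each (highest adjusted p 0.11 and 0.105).

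**Figure D2:**
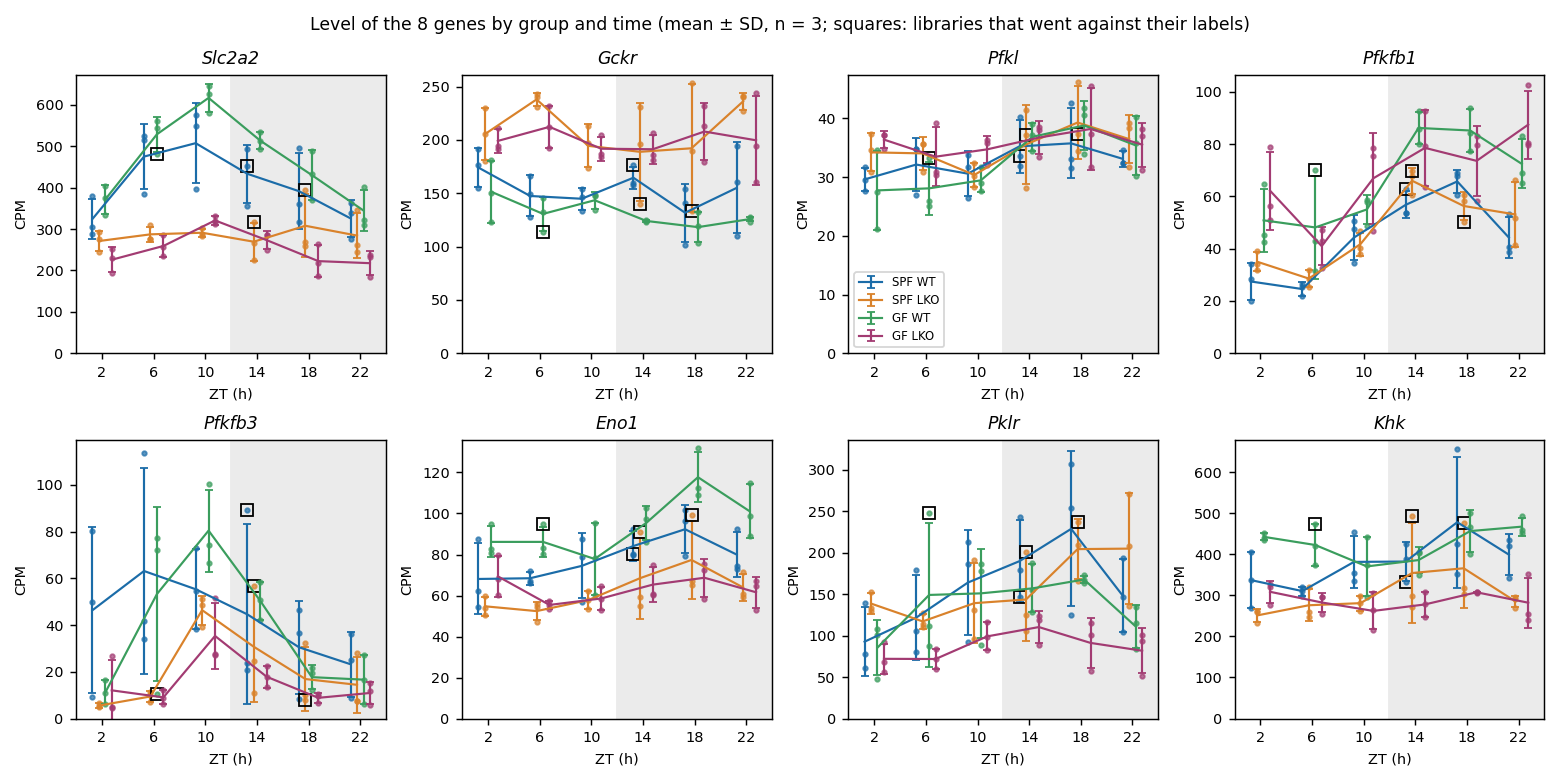
Expression of the 8 genes in CPM (vertical axes, from 0) against ZT in hours for livers of the 4 groups, with a point per mouse, lines through the mean of 3 mice, bars of 1 SD, squares for the 4 libraries that went against their labels and grey for the dark phase. Slc2a2 in GF LKO livers lies below GF WT livers at every ZT, Gckr lies above, and Pfkfb1 is highest in the dark phase.

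At the phosphofructokinase step, Pfkfb3 was lower in LKO mice and Pfkl and Pfkfb1 passed no pooled test between genotypes. Pfkl, the enzyme subunit, had group medians between 32.3 and 36.7 CPM and its log2 fold change between LKO and WT mice was 0.10 in SPF and 0.13 in GF mice. Pfkfb1, the liver form of the bifunctional enzyme, had medians of 44.1 CPM in both SPF WT and SPF LKO livers, with log2 fold changes of 0.10 in SPF and 0.04 in GF mice that did not pass. Pfkfb3, a form with high kinase activity, was lower in LKO mice by -1.09 (SE 0.36, adjusted p = 0.0248) in SPF and by -1.28 (SE 0.36, adjusted p = 0.00504) in GF mice.

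Pfkfb3 was the most variable of the 8 between livers. SPF WT livers ranged from 8.24 to 114 CPM (median 37.6 CPM) and SPF LKO livers from 4.79 to 56.8 CPM (median 10.6 CPM). Those of GF WT mice ranged from 6.06 to 100 CPM (median 24.5 CPM) and of GF LKO mice from 4.38 to 51.7 CPM (median 12 CPM). With all libraries its calls at single ZT fell at ZT2, ZT6 and ZT10. In GF mice at ZT14, in the dark phase, the change of -1.49 did not pass with all libraries (adjusted p = 0.157) and passed at the same size without the 2 doubted SPF libraries of that ZT, which enter the estimate of the spread (adjusted p = 0.00209). At ZT6 the SPF WT livers held 114, 33.9 and 41.9 CPM, the SPF LKO livers 10.2, 11.3 and 6.89 CPM, and the groups did not overlap, as for 30.88% of genes at that ZT (log2 fold change -2.75, SE 0.63, adjusted p = 0.01665). The value at ZT2 in SPF mice was -3.06 (SE 0.75, adjusted p = 0.02612), where WT livers held 49.8, 9.13 and 80.1 CPM and LKO livers 4.79, 5.18 and 6.63 CPM. In GF mice Pfkfb3 was lower in LKO livers at ZT6 (-2.55, adjusted p = 0.01867), and at ZT10 by -1.19 (adjusted p = 0.006878). At ZT6 the library labelled GF WT ZT6 replicate 3 held 10.5 CPM against 72.2 and 77.2 CPM in the other GF WT livers, within the range of the GF LKO livers (6.24 to 12.2 CPM), and without it the change was -3.04. The GF call at ZT10 stood in all 12 fits that left out a liver but not in the fit on all 72 libraries (adjusted p = 0.293). The other calls were lost in 5 (SPF ZT2), 4 (SPF ZT6) and 4 (GF ZT6) of them, with highest adjusted p of 0.104, 0.0896 and 0.0823.

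Enolase and pyruvate kinase act late in the pathway. Eno1 ranged from 54.3 to 102 CPM (median 79.0 CPM) in SPF WT and from 47.2 to 99.4 CPM (median 59.3 CPM) in SPF LKO livers. In GF mice the WT livers ranged from 60.1 to 132 CPM (median 94.8 CPM) and the LKO livers from 52.8 to 79.9 CPM (median 60.5 CPM). Eno1 was lower in LKO mice by -0.32 (SE 0.09, adjusted p = 0.0067) in SPF and -0.57 (SE 0.07, adjusted p = 4.43e-08) in GF mice, and by -0.41 in SPF mice without the 3 doubted libraries. The highest SPF LKO values, 99.4 and 91.0 CPM, came from 2 of those libraries. At single ZT, Eno1 was lower at ZT6 in SPF (-0.39) and at ZT6 (-0.64), ZT18 (-0.76) and ZT22 (-0.72) in GF mice. The GF calls at ZT6 and ZT22 stood in all 12 fits that left out a liver. The SPF call at ZT6 was lost in 7 of the 12 (highest adjusted p 0.151) and the GF call at ZT18 without GF WT replicate 3 or GF LKO replicate 2.

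Pklr ranged from 60.5 to 307 CPM (median 146 CPM) in SPF WT livers and from 95.9 to 270 CPM (median 135 CPM) in SPF LKO livers, with a log2 fold change of 0.01 that did not pass and that was -0.07 without the 3 doubted libraries. In GF mice it was lower in LKO livers by -0.64 (SE 0.15, adjusted p = 0.00102). GF WT livers ranged from 47.3 to 247 CPM (median 132 CPM) and GF LKO livers from 50.9 to 123 CPM (median 90.0 CPM). The highest GF WT value was the library labelled ZT6 replicate 3, and without it the change was -0.57. Pklr passed no test between genotypes at a single ZT.

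Khk, the fructose kinase, was lower in LKO mice by -0.33 (SE 0.10, adjusted p = 0.0116) in SPF and -0.56 (SE 0.06, adjusted p = 1.038e-09) in GF mice. SPF WT livers ranged from 269 to 657 CPM (median 353 CPM) and SPF LKO livers from 234 to 494 CPM (median 287 CPM). GF WT livers ranged from 297 to 502 CPM (median 438 CPM) and GF LKO livers from 217 to 352 CPM (median 296 CPM). As with Eno1, the highest SPF LKO livers, at 494 and 477 CPM, were the libraries labelled ZT14 replicate 2 and ZT18 replicate 1, and the SPF change without the 3 doubted libraries was -0.46. Khk passed at ZT2 (-0.53), ZT6 (-0.58) and ZT22 (-0.73) in GF mice and at no ZT in SPF mice. At ZT2 the GF WT livers held 453, 440 and 436 CPM and the GF LKO livers 328, 321 and 278 CPM, without overlap, as for 19.62% of genes. The ZT6 call stood in all 12 fits that left out a liver, the ZT22 call was lost without GF LKO replicate 2, and the ZT2 call was lost in 10 of the 12 (highest adjusted p 0.187).

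Counted over genes and ZT, 7 of 48 tests between SPF LKO and SPF WT mice passed (2 higher, 5 lower) and 18 of 48 between GF LKO and GF WT mice (4 higher, 14 lower). In SPF mice the 8 genes gave 1, 4, 2, 0, 0 and 0 calls from ZT2 to ZT22, where 6.89%, 7.26%, 11.9%, 0%, 0.015% and 3.31% of all genes were called. At ZT14, ZT18 and ZT22, where edgeR called 0 of the 8, unadjusted p was under 0.05 for 1, 1 and 3 of them and DESeq2 called 1, 0 and 2. Over all genes the unadjusted edgeR p was under 0.05 for 1484 of 13317, 1413 of 13326 and 1966 of 13576. The share of all genes called by DESeq2 at a ZT is not given here. In GF mice the 8 genes gave 2, 5, 3, 2, 3 and 3 calls, where 4.21%, 11.7%, 13.1%, 6.1%, 8.43% and 4.44% of genes were called. Counts were also simulated from the real library sizes, the mean of each gene over all 72 libraries and a single dispersion for all genes. In the ZT6 fit on these counts, 55 of 200 genes changed 2-fold in SPF LKO mice were recovered. A gene not called at a single ZT may thus still have differed. The simulation did not use the spread of single genes, such as that of Pfkfb3.

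**Figure D3:**
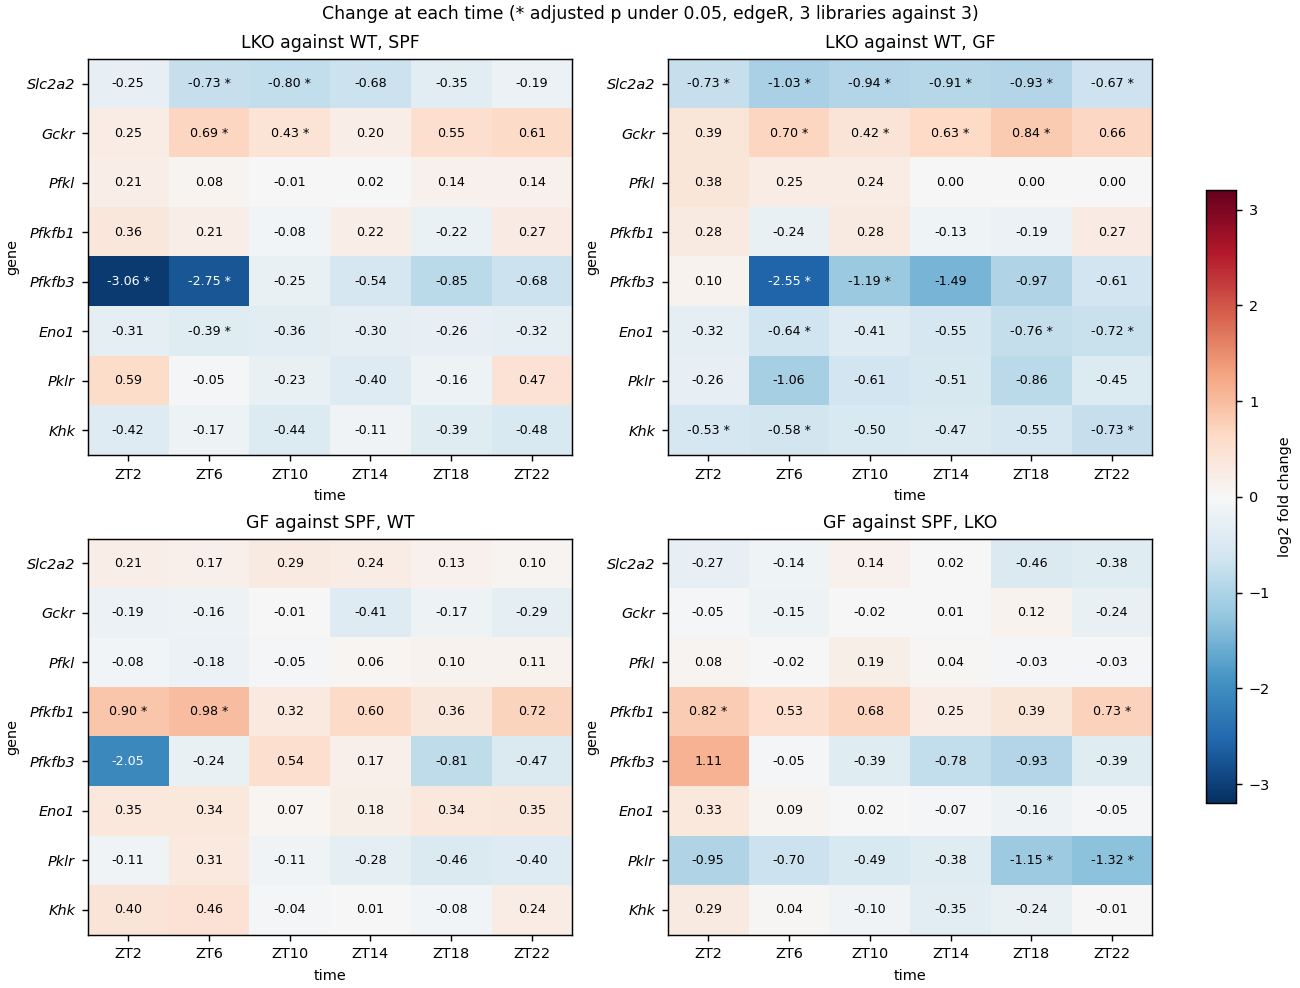
Log2 fold changes of the 8 genes (rows) at each ZT (columns) in the 4 comparisons, 3 against 3 livers each, with a colour scale in log2 units and an asterisk where the adjusted p was under 0.05. In GF mice, LKO against WT, the Slc2a2 row carries asterisks at all 6 ZT, while the SPF panel has none from ZT14 to ZT22.

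The absence of calls in SPF mice at ZT14 and ZT18 depended on libraries that went against their labels. Without both doubted ZT14 libraries, a setting chosen after the data were seen, 5 of the 8 genes passed between SPF LKO and SPF WT mice at ZT14, where 5.51% of genes then did. Slc2a2 (-0.77, adjusted p = 0.00897), Pklr (-0.87, adjusted p = 0.0256), Eno1 (-0.58, adjusted p = 0.0284) and Khk (-0.50, adjusted p = 0.0411) were lower and Gckr (0.44, adjusted p = 0.0384) was higher in that fit. With all libraries the same genes stood at -0.68, -0.40, -0.30, -0.11 and 0.20. At ZT18, Gckr passed once the doubted SPF LKO replicate 1 was left out (0.76, adjusted p = 0.036), where 4.63% of genes did, and the other 7 did not. The doubted SPF libraries also enter the spread for GF mice at ZT14: without both, Pfkfb3, Eno1 (-0.54, adjusted p = 0.00664) and Khk (-0.47, adjusted p = 0.011) passed between GF LKO and GF WT mice, where 13.6% of genes did, at changes close to those with all libraries (-0.55 and -0.47 for Eno1 and Khk).

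**Figure D4:**
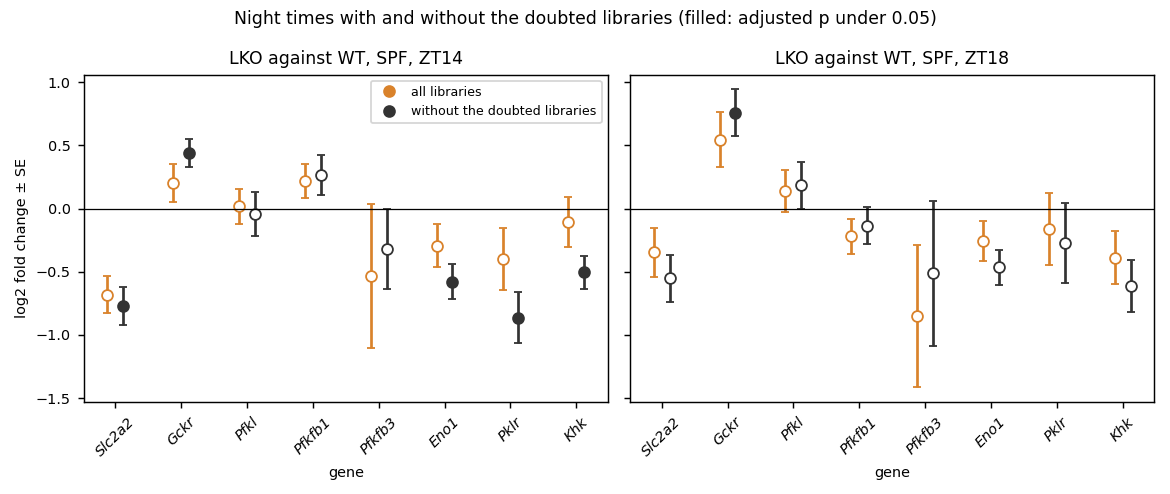
Log2 fold changes between SPF LKO and SPF WT livers at ZT14 and ZT18 for the 8 genes with all libraries and without those that went against their labels, bars being standard errors and filled points an adjusted p under 0.05. At ZT14, Slc2a2, Gckr, Eno1, Pklr and Khk lie farther from 0 and pass the test once the 2 ZT14 libraries are left out.

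Whether the effect of genotype differed between GF and SPF mice was tested on all 72 libraries. Of the 8 genes, edgeR called 0, DESeq2 called 0, and 4 had an unadjusted p under 0.05, namely Pklr (difference of log2 fold changes, GF minus SPF, -0.65), Slc2a2 (-0.37), Eno1 (-0.26) and Khk (-0.24). Over all genes 0.438% were called, and 876 of 13484 had an unadjusted p under 0.05. With ZT as a covariate Slc2a2 passed (-0.39, adjusted p = 0.0423) and the other 7 did not. Without the 4 doubted libraries these differences were -0.51 for Pklr, -0.33 for Slc2a2, -0.17 for Eno1 and -0.11 for Khk. The lower Pklr of GF LKO mice is not shown to differ from the SPF comparison.

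Microbial status was compared within each genotype, sharing the same livers with the comparisons above. Pfkfb1 was higher in GF than SPF mice in both genotypes, by 0.58 (SE 0.16, adjusted p = 0.00505) in WT and 0.54 (SE 0.14, adjusted p = 0.00279) in LKO mice. SPF WT livers ranged from 19.9 to 68.99 CPM (median 44.1 CPM) and GF WT livers from 31.5 to 93.8 CPM (median 67.2 CPM). SPF LKO livers ranged from 25.2 to 69.6 CPM (median 44.1 CPM) and GF LKO livers from 32.8 to 103 CPM (median 76.98 CPM). Within ZT, the GF livers were all above the SPF livers at 5 of 6 ZT in WT and at 4 of 6 ZT in LKO mice, against 20.27% to 29.72% and 21.09% to 40.06% of genes that did not overlap at a ZT.

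Among WT mice, 3 of the 8 genes differed between GF and SPF with ZT pooled, where 31.8% of genes did. Besides Pfkfb1, Eno1 was higher (0.26, SE 0.08, adjusted p = 0.0149) and Gckr lower (-0.22, SE 0.07, adjusted p = 0.0167) in GF WT livers. In LKO mice 2 of the 8 differed, where 36.4% of genes did. Besides Pfkfb1, Pklr was lower in GF LKO than SPF LKO livers (-0.85, SE 0.13, adjusted p = 6.945e-06). Its GF LKO livers reached at most 123 CPM, below the SPF LKO median. Slc2a2 stood at -0.18 in LKO mice (adjusted p = 0.0582) and did not pass. Without the doubted libraries 3 genes in WT and 2 in LKO mice passed.

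At single ZT, Pfkfb1 was higher in GF WT mice at ZT2 (0.90, adjusted p = 0.02115) and ZT6 (0.98, adjusted p = 0.04838), the 2 calls among 48 in WT mice, where 10.1%, 2.62%, 2.89%, 0.0751%, 0.983% and 0.516% of genes were called from ZT2 to ZT22. The ZT6 value was 0.61 (adjusted p = 0.0727) without the doubted GF WT library of that ZT, in which Pfkfb1 was at 70.1 CPM against 31.5 and 42.8 CPM. That call was lost in 10 of 12 fits that left out a liver (highest adjusted p 0.185), and the ZT2 call in 3 (highest adjusted p 0.0691). At ZT14 Pfkfb1 passed in WT mice only without both doubted libraries (0.67, adjusted p = 0.0336, with 2.32% of genes called). In LKO mice Pfkfb1 was higher in GF livers at ZT2 (0.82) and ZT22 (0.73) and Pklr lower at ZT18 (-1.15) and ZT22 (-1.32), 4 calls among 48, where 8.92%, 0.309%, 0.982%, 0.0601%, 3.71% and 2.25% of genes were called. The Pklr value at ZT18 was -1.04 (adjusted p = 0.126) when the doubted SPF LKO replicate 1 was left out. These 4 calls were lost in 4, 8, 9 and 6 of the 12 fits that left out a liver, with highest adjusted p of 0.132, 0.175, 0.155 and 0.162. At ZT22 the SPF LKO livers held 136, 270 and 208 CPM of Pklr and the GF LKO livers 93.8, 50.9 and 100 CPM, with no overlap, as for 29.05% of genes. At ZT10, ZT14, ZT18 and ZT22 in WT mice edgeR called 0 of the 8, with 1, 2, 1 and 2 at an unadjusted p under 0.05 and 0, 1, 0 and 1 called by DESeq2. Over all genes 2510 of 13442, 1958 of 13317, 2386 of 13326 and 2321 of 13576 had an unadjusted edgeR p under 0.05 there. In LKO mice edgeR called 0 at ZT6, ZT10 and ZT14, with 1, 1 and 0 at an unadjusted p under 0.05 and 0, 1 and 0 called by DESeq2. Over all genes 2378 of 13609, 1909 of 13442 and 1964 of 13317 had an unadjusted edgeR p under 0.05 at these ZT.

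Time of day was tested as a 24 h cosine over the 18 livers of each group (edgeR quasi-likelihood test of the cosine terms). With all libraries Pfkfb1 was the 1 gene of the 8 called in all 4 groups, peaking at ZT16.3 in SPF WT, ZT16.9 in SPF LKO, ZT17.1 in GF WT and ZT18.1 in GF LKO mice, with peak to trough differences of 1.44, 1.14, 0.95 and 0.79 on the log2 scale. In SPF WT livers it was at 26.7, 25.3 and 21.7 CPM at ZT6 and at 68.99, 67.7 and 60.5 CPM at ZT18. Every ZT18 liver was above every ZT6 liver in that group, these being the ZT of its highest and lowest mean. The share of all genes separated in this way is not given here. Gckr, which was not called rhythmic, also had no overlap between its highest and lowest ZT in SPF WT mice. The GF LKO call was lost without replicates numbered 2 (adjusted p = 0.0973) or 3 (0.141). Its fitted peak lay in the dark phase, in which mice mostly feed, in both genotypes.

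Slc2a2 was rhythmic in SPF WT (peak to trough 0.67, adjusted p = 0.01517), GF WT (0.83, adjusted p = 1.9e-05) and GF LKO mice (0.55, adjusted p = 0.00149), with fitted peaks between ZT10.3 and ZT10.5, late in the light phase. In SPF LKO mice its peak to trough difference was 0.07 and did not pass (adjusted p = 0.909). Its SPF WT call was lost with ZT as 6 levels (edgeR adjusted p = 0.0977) and without replicates numbered 2 (0.2125). The GF LKO call of Slc2a2 was lost without those numbered 3 (0.0543). The mean of 3 livers ran from 324 CPM at ZT2 to 508 CPM at ZT10 in SPF WT mice, and from 270 CPM at ZT14 to 308 CPM at ZT18 in SPF LKO mice, where the libraries of the highest and lowest ZT overlapped. The test of a different rhythm between SPF LKO and SPF WT mice gave Slc2a2 an adjusted p of 0.224 (unadjusted 0.0101), so the rhythms are not shown to differ.

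Pfkfb3 was rhythmic in SPF LKO (peak to trough 2.51, peak ZT13.2), GF WT (2.71, peak ZT10.3) and GF LKO mice (1.51, peak ZT10.6), and had a peak to trough difference of 1.31 in SPF WT mice that did not pass. In SPF LKO mice its 3 livers at ZT10 held 39.3, 51.2 and 48.8 CPM against 4.79, 5.18 and 6.63 CPM at ZT2. Its SPF LKO call was lost without replicates numbered 1 (edgeR adjusted p = 0.08475) or 2 (0.2145). Its GF LKO call was lost without those numbered 2 (0.246) or 3 (0.339). Pklr passed in SPF WT (1.15, peak ZT15.5), SPF LKO (0.80, peak ZT19.4) and GF LKO mice (0.63, peak ZT14.2). Eno1 passed in SPF LKO (0.55, peak ZT17.3) and GF WT mice (0.48, peak ZT19.0), Pfkl in GF WT mice (0.53, peak ZT17.4) and Khk in SPF LKO mice (0.53, peak ZT15.9). The peaks of Pklr, Eno1, Pfkl and Khk named here lay in the dark phase. Calls of Pklr in SPF WT and of Pklr, Eno1 and Khk in SPF LKO mice were lost without any 1 replicate number (edgeR adjusted p 0.0533 to 0.371). Pklr in GF LKO mice was lost without number 1 (0.2925) or 3 (0.3365). In GF WT mice Eno1 was lost without number 1 (0.0749) or 2 (0.111) and Pfkl without 1 (0.138). Each of these calls was also lost with ZT as 6 levels. Gckr passed in none of the 4 groups, with peak to trough differences of 0.06 to 0.28.

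In all, 3 of the 8 genes were rhythmic in SPF WT, 5 in SPF LKO, 5 in GF WT and 4 in GF LKO mice, where 15.5%, 22.2%, 27.7% and 36% of all genes were. The median peak to trough difference of the 8 genes was 0.59, 0.54, 0.66 and 0.38, against 0.33, 0.34, 0.35 and 0.36 over all genes. A different rhythm between LKO and WT mice was called for 0 of the 8 in SPF mice, where 1.06% of genes were called and 2 of the 8 (Slc2a2 and Pfkfb3) had an unadjusted p under 0.05, and for 0 in GF mice, where 6.04% of genes were called and 0 of the 8 had an unadjusted p under 0.05. Over all genes that unadjusted p was under 0.05 for 1837 of 13952 in SPF and 2662 of 13373 in GF mice. Without the 2 doubted SPF LKO libraries Khk did not pass in SPF LKO mice (adjusted p = 0.197), and without the doubted GF WT library (ZT6 replicate 3) all 8 genes passed in GF WT mice, Gckr (adjusted p = 0.0304), Pklr (0.0085) and Khk (0.0224) among them. Pklr then passed in all 4 groups as well, with adjusted p = 0.0281 in SPF WT and 0.0459 in SPF LKO mice without their doubted libraries and 0.0476 in GF LKO mice. Khk passed in SPF WT mice without their doubted library (adjusted p = 0.0459). The share of all genes called rhythmic in these fits without doubted libraries is not given here. The 8 of 8 in GF WT mice can thus not be set against such a share.

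**Figure D5:**
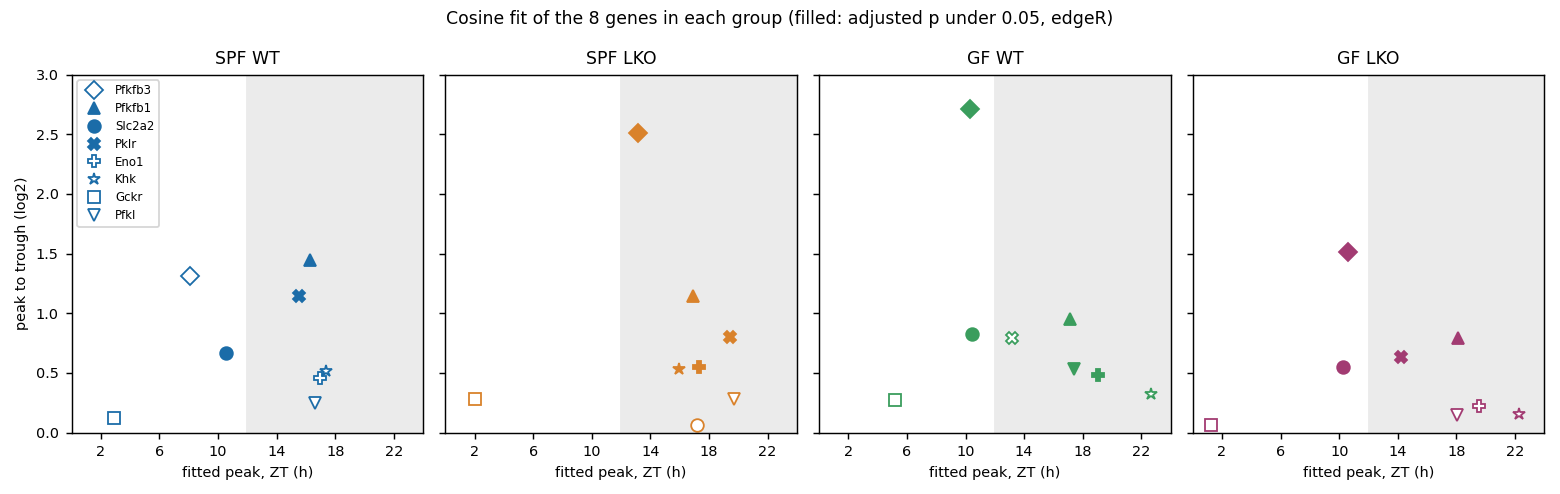
Fitted peak in ZT hours (horizontal axis) and peak to trough difference in log2 units (vertical axis) of the 24 h cosine for the 8 genes in the 4 groups, with filled points where the adjusted p was under 0.05. Pfkfb1 is filled in all 4 groups between ZT16.3 and ZT18.1, and Slc2a2 sits near ZT10 in all groups except SPF LKO.

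Per length, Khk was the most expressed of the 8 genes in every group, with mean CPM per kilobase of exon of 160 to 236, with Slc2a2 next in WT mice (71.2 in SPF and 81.3 in GF, on the same scale). In SPF LKO mice the mean levels per kilobase of Slc2a2 (49.6), Pklr (48.8) and Gckr (48.2), and in GF LKO mice those of Gckr (46.2) and Slc2a2 (44.01), differed by less than the SD between livers. The mean level per kilobase of Pklr was lower in GF LKO mice, at 27.1. Its length includes the 21.97% of exon bases shared with Hcn3. Reads overlapping both genes were not counted, so levels of Pklr per kilobase may be too low. Mean levels per kilobase over the 4 groups were 10.9 to 17 for Pfkfb1, 11.6 to 17.5 for Eno1, 4.90 to 5.37 for Pfkl and 2.08 to 5.80 for Pfkfb3.

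Other genes of sugar transport and breakdown were taken from a list of 56 (transporters, hexokinases, other glycolytic enzymes, fructose and polyol enzymes, pyruvate dehydrogenase and its kinases, and transcription factors), of which 47 or 48 were tested in the pooled comparisons. In SPF LKO mice 4 of 48 were higher and 10 lower than in WT mice, with a median log2 fold change of -0.15. In GF LKO mice 4 of 47 were higher and 19 lower, with a median of -0.17. Of all genes tested, 23.1% differed in the SPF and 30.8% in the GF comparison. Slc2a5, the fructose carrier GLUT5, was lower by -1.43 in SPF and -1.47 in GF LKO mice. Sord (sorbitol dehydrogenase, which yields fructose) was lower by -0.30 and -0.54, and Tkfc, which acts on fructose after Khk and aldolase, by -0.57 in GF LKO mice. Pdk4, a kinase that shuts off pyruvate dehydrogenase, was higher by 1.56 in SPF and 0.96 in GF LKO mice, and Slc16a1, the lactate and pyruvate carrier MCT1, by 0.63 and 0.49. Pdha1, a subunit of that dehydrogenase, was lower in SPF LKO mice (-0.37), and Pdk1, another of its kinases, in GF LKO mice (-0.66). Mlxipl, which encodes the glucose-sensing factor ChREBP, was lower in SPF LKO mice (-0.35), a call lost without the doubted SPF WT library (adjusted p = 0.0528), without the filter (0.0669) and without any 1 replicate number (0.0863 to 0.219). Smaller increases were seen for Pgam1 (0.38) and Adpgk (0.16) in SPF and for Ldha (0.31) and Pfkm (0.17) in GF LKO mice.

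In GF against SPF WT mice 9 of 47 of these other genes were higher and 7 lower, and in LKO mice 6 of 48 higher and 9 lower. Of all genes tested, 31.8% differed in WT and 36.4% in LKO mice. Aldoc, an aldolase, was higher by 1.07 in WT and 0.81 in LKO mice, followed by Akr1b3, the aldose reductase (0.51 and 0.45), and Pgk1 (0.37 and 0.29). Mlxipl was lower in GF mice of both genotypes, by -0.90 in WT and -0.71 in LKO mice. Srebf1, a lipogenic and glycolytic transcription factor, was lower in GF LKO mice (-0.71), as were Tkfc (-0.53) and Hk3 (-0.39), while Ldha was higher (0.28). In WT mice Pdk1 was higher (0.32) and Pfkfb2 (-0.43), Pfkp (-0.44) and Hk2 (-0.53) were lower. Without the doubted libraries Pfkp (edgeR adjusted p = 0.063) and Hk2 (0.0647) did not pass, and DESeq2 did not call Hk2 (0.0586). Rhythms of the other genes differed between LKO and WT mice for 2 of 50 in SPF (Slc16a1 and Pdk4) and 3 of 48 in GF mice (Sord, Slc16a1 and Ldha), these being named after their values were seen. Of all genes 1.06% were called in SPF and 6.04% in GF mice, so the GF count was near the share over all genes.

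Genes outside the 8 whose mean log2 CPM over the 24 group and ZT means most resembled a member were listed among 10710 genes as a description. Slc2a2 was most like Gys2 (liver glycogen synthase, Pearson r = 0.945), Susd1 (0.939) and Lipg (0.935), and Gckr most like Metap1d (0.954), Col5a3 (0.946) and Hectd2 (0.931). For Khk these were Gsta3 (0.954), Il1rap (0.944) and Gstt1 (0.942), and for Eno1 Gfm1 (0.951), Cpt2 (0.938) and Galm (0.931). Pklr was most like Tkfc (0.929), Hcn3 (0.896), with which it shares exon bases, and Zfp746 (0.855). Pfkfb3 was most like Arhgef26 (0.91), Mfsd2a (0.9) and Rapgef4 (0.896), Pfkfb1 most like Cps1 (0.883), Dpy19l1 (0.881) and Polr3g (0.88), and Pfkl most like Smarca4 (0.836) and Ap1b1 (0.824). The 24 means of 2 genes come from the same libraries.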

How the data were processed

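RNA from 72 livers was analysed. The authors aligned single-end reads to mm10 (GRCm38) with STAR 2.6.1b and counted reads over Ensembl 97 exons with featureCounts 2.0.0, without strand and without reads aligned to several places or overlapping several genes. The deposited values are raw counts per gene. Libraries were grouped by their labels, and 0 columns were left unused. Gene symbols were matched for 55394 of 55573 genes.

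Pooled comparisons used the 36 libraries of both groups, comparisons within a ZT all 12 libraries of that ZT (4 groups), and the GF minus SPF difference all 72, in edgeR 4.0.16 (TMM, low-count filter, quasi-likelihood test) in R 4.3.3. SE was the log2 fold change divided by the square root of F. P-values were adjusted over all genes tested. DESeq2 1.42.0 and limma 3.58.1 served as alternatives, as did other scaling, no filter, ZT as covariate, a replicate block and leaving out libraries. The edgeR fits were tested on simulated data. With 200 genes changed 2-fold, 174 were recovered for the pooled SPF comparison and 20 for the rhythm difference.

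Members and lists were chosen with earlier results of these data known. Beyond the 8 genes, the text names the 4 largest increases and decreases among called pathway genes per pooled comparison and the 3 genes most like each member, of which 1 is not reported here. Sequences came from RefSeq. Protein sequences were not used here.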

Additional observations from a re-analysis of the deposited data

Results flagged for a closer look

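Of the 8 genes, the other pathway genes and Alb, 2 had a genotype effect that differed between GF and SPF mice (edgeR interaction test over 72 libraries), and neither is one of the 8. Alb, whose promoter drives the Cre, had an effect lower in GF than in SPF mice by -0.73 on the log2 scale (SE 0.16, adjusted p = 0.00967), which was -0.47 (adjusted p = 0.0303) without the doubted libraries. Dlat, a subunit of pyruvate dehydrogenase, had an effect lower by -0.29 (SE 0.07, adjusted p = 0.0498). The Dlat call remained with DESeq2 and with ZT as a covariate. It was lost with median-of-ratios scaling (adjusted p = 0.0584), the replicate block (0.0594), no filter (0.115), without any 1 replicate number (0.229 to 0.56), without any 1 doubted library (0.0568 to 0.102) and without all of them (0.135). The Alb call was lost without any 1 replicate number (0.0788 to 0.326).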

How the results depend on the processing

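Among counts of called members, 364 stayed within 1.5 times of the main value under the alternatives run and 43 moved. Between genotypes with ZT pooled, 5 (SPF) and 6 (GF) members were called by DESeq2 as by edgeR. Leaving out all livers of 1 replicate number, or 1 doubted library, gave 2 to 5 members in SPF, 5 to 6 in GF, 1 to 3 for GF against SPF in WT, 2 in LKO mice and 0 for the difference of genotype effects. The SPF count was lowest without the replicates numbered 3, where Slc2a2 and Gckr were still called and Pfkfb3, Eno1 and Khk were not, and Pfkfb3 was also lost without those numbered 1. In GF mice Pfkfb3 was lost without numbers 1 or 2. For GF against SPF in WT mice, Eno1 was lost without number 1, Gckr without 2 or 3 or without the filter, and Pfkfb1 without 3 (adjusted p = 0.0501). Slc2a2 was called between microbial states with ZT as a covariate, at 0.17 in WT and -0.19 in LKO mice (edgeR adjusted p = 0.0323 and 0.0255). With ZT as a covariate 1 member had a different genotype effect. Leaving out 1 liver gave 5 to 9 calls at single ZT between genotypes in SPF and 15 to 20 in GF mice, and 1 to 4 in WT and 2 to 5 in LKO mice between microbial states, against 7, 18, 2 and 4. DESeq2 gave 11 calls for SPF genotype and 7 for WT microbial status, no filter on low counts 15, 32, 10 and 12, and 1 fit on all 72 libraries 4 for WT microbial status. That fit lost the calls of Eno1 (SPF ZT6), Gckr (SPF and GF ZT10), Khk (GF ZT2) and Pfkfb3 (GF ZT10). Without both doubted ZT14 libraries, chosen after the data were seen, SPF genotype had 12. For DESeq2, no filter and the fit on all 72 libraries the share of all genes called is not given here. Their counts of members can thus not be set against the calls over all genes. The cause of these differences was not tested.

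Rhythms were called for 1 (SPF WT), 2 (SPF LKO) and 3 (GF WT) members with ZT as 6 levels, against 3, 5 and 5, and for 6 in SPF WT mice without the filter. Leaving out a replicate number or a doubted library gave 1 to 4, 1 to 4, 3 to 8 and, in GF LKO mice, 0 to 3, the 0 without the replicates numbered 3. The share of all genes called rhythmic under these alternatives is not given here.

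Replicate numbers did not pair livers across groups. Correlations of same-numbered livers had medians of 0.00765, -0.0235, -0.00818 and -0.0471 in the 4 comparisons, and 3 to 6 of 18 pairs were over 0.1. With a replicate block, calls at single ZT were 7 (SPF) and 19 (GF) between genotypes and 1 (WT) and 2 (LKO) between microbial states.

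Signs turned for members that were not called. Pklr between SPF genotypes ranged from -0.14 to 0.181 over fits without 1 replicate number, was -0.0157 and -0.0337 when SPF LKO ZT14 replicate 2 or ZT18 replicate 1 was left out, and -0.0688 without the doubted libraries. Pfkfb1 between GF genotypes ranged from -0.0247 to 0.153 without 1 replicate number. For GF against SPF in WT mice, Pfkl was 0.0052 by DESeq2, 0.0221 without the filter and -0.0593 to 0.0594 without 1 replicate number, and Pfkfb3 -0.461 to 0.0541. In LKO mice the ranges were -0.039 to 0.13 for Pfkl and -0.053 to 0.0994 for Eno1, and Khk was 0.032 without the doubted libraries. For the difference of genotype effects, Pfkfb3 was 0.138 with ZT as a covariate, 0.0835 with the replicate block and -0.643 to 0.435 without 1 replicate number, and Pfkl -0.0244 to 0.0555.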
